A study of Mus musculus with 7 samples.

Results

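The interferon-stimulated genes examined here were a list of 41 genes, grouped by the role of their products: regulators of interferon signalling, RNA sensors, antiviral effectors, GTPases, ADP-ribosylation and ubiquitin factors, antigen processing genes and chemokines. A gene was measured by the probe set that names it alone, and by the brightest of them (mean of 7 arrays) where it had more. This gave 36 members among 19937 genes measured in the same way. RNA of mouse tissue was hybridised to Affymetrix Mouse Gene 1.0 ST arrays, and the deposited values are on the log2 scale. The mice were Iqgap1 knockout or wild type, all of 1 mixed strain background (C57BL/6 and 129), and topical 4OHT (hydroxytamoxifen, a ligand of the estrogen receptor) had been given for 0 or 6 days. There were 2 knockout arrays at day 0, 1 wild-type array at day 0, 2 knockout arrays at day 6 and 2 wild-type arrays at day 6. Iqgap1 encodes a scaffold protein for kinases downstream of Ras, and the series asks how its loss changes expression before and after the topical treatment. The labels say no more of the tissue than that it is mouse tissue. Age, body site and whether replicates were separate mice are not given in the sources used here, so p-values reflect only how far these samples differ from each other, which may be technical.

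Interferons are cytokines, and cells release those of type I and type III when they sense viral or other foreign nucleic acid. Interferons bind receptors linked to Janus kinases, which phosphorylate STAT proteins. A complex that holds STAT2 and IRF9 binds the interferon-stimulated response element after type I or type III interferon, while the gamma-activated sequence is the element bound after interferon gamma. The genes switched on this way block virus replication, raise antigen presentation and attract T cells, and in skin both keratinocytes and immune cells can express them. Genes such as the IFIT, OAS and Mx genes respond mostly to type I interferon, and Cxcl9, the guanylate-binding protein genes and the immunoproteasome genes respond strongly to interferon gamma.

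Iqgap1, which checks the labels, had log2 values of 9.02 and 8.99 in the knockout arrays and 9.94 in the wild-type array at day 0, and 8.58 and 8.67 in knockout and 10.11 and 10.59 in wild type on day 6, so all 4 knockout arrays lay below all 3 wild-type arrays. Whether its probe set lies inside the deleted sequence was not analysed here. Medians over all probe sets were 5.61 to 5.79. Xist, the RNA that coats the inactive X chromosome, gave signal in 2 of 7 arrays, wild-type replicate 1 of day 0 and of day 6. That split and genotype cannot be told apart at day 0, nor can that split and the difference between the wild-type replicates of day 6. Keratinocyte markers had list means of 10.74 to 11.77 in the 7 arrays (10 of 10 measured), and fibroblast markers 9.37 to 12.02 (7 of 7), so cells of skin were present under the label of mouse tissue. Muscle markers (7 of 7, 8.57 to 12.38) and fat markers (6 of 7, 6.61 to 10.69) were present too. In a bulk sample like this, fewer cells of a type and less RNA per cell cannot be told apart.

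Of the 5 listed genes without a probe set of their own, 4 share a probe set with related genes. The values of such a probe set belong to the genes together and enter no count of members. In each group of 2 arrays, replicate 1 is given before replicate 2 here and in all that follows. The probe set of Gbp2 and Gbp2b had log2 values of 9.61 and 8.68 in the knockout arrays and 7.87 in the wild-type array at day 0, and 5.50 and 6.58 in knockout and 5.19 and 6.13 in wild type on day 6. Igtp and Irgm2 together had 8.37 and 8.28 in the knockout arrays and 6.91 in the wild-type array at day 0, and 5.64 and 5.99 in knockout and 5.43 and 5.06 in wild type on day 6. The probe set of 6 guanylate-binding protein genes that include Gbp6 had 8.07 and 7.71, then 6.55, at day 0, and 4.93 and 5.84, then 5.13 and 5.35, at day 6 in the same order. In these 3 probe sets of GTPase genes each day 0 array was above each day 6 array, which held for 9.66% of all genes. Isg15, a ubiquitin-like protein, shares its probe set with Gm9706 and had 4.20 and 4.94 in the knockout arrays and 4.33 in the wild-type array at day 0, and 3.81 to 4.35 at day 6. In this probe set the days overlapped, and all values but 4.94 were within or close to 3.498 to 4.245. That is the range of Xist and Y-linked genes where these gave no signal. Ifi44 had no probe set and was not analysed here.

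Promoter windows from RefSeq (build GRCm38.p6) were searched over the 250 bases upstream of the start for the core letters of both response elements. They covered 28 of the 36 measured members, and not Usp18, Dhx58, Oas2, Mx1, Mx2, Rtp4, Parp9 and Parp14. The ISRE-like motif was GAAANNGAAA or, on the other strand, TTTCNNTTTC, and the GAS-like motif was TTCNNNGAA, which reads the same on both strands. The motifs can overlap each other, as they do upstream of Bst2. An ISRE-like match was found in 12 of 28 measured members (42.9%) and in 3.46% of all 27025 genes with a window. A GAS-like match was found in 7 of 28 (25%) and in 8.13% of all genes. A gene with several windows was counted if any of them had a match. A match is a description of the letters and not a binding site. The 150 bases upstream of 7 members follow, written 5′ to 3′ on the strand of the gene, with matches in capitals. Gbp3 and Irf1 have 2 windows each, and the window shown is the one with a match in these bases. Ifit1, Ifit3 and Rsad2 were among the members that differed most between the 2 knockout day 0 arrays. Gbp3 and Irgm1 have ISRE-like matches too, but differed little between those arrays and fell by day 6. Irf1 and Psmb8 have GAS-like matches and were not higher in knockout day 0 replicate 2. The other measured members with a GAS-like match were higher there, by log2 differences of 1.17 (Ifit2), 1.16 (Bst2), 0.64 (Isg20), 0.54 (Oas1a) and 0.04 (Gbp5).
Ifit1, chr19:34640739-34640888, plus strand: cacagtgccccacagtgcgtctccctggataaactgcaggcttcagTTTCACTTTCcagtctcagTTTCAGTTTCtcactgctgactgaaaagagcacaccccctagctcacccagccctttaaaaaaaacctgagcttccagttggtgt
Ifit3, chr19:34583379-34583528, plus strand: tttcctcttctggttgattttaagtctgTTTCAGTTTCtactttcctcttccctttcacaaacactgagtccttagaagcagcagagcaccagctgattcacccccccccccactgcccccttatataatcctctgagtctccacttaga
Rsad2, chr12:26456453-26456602, minus strand: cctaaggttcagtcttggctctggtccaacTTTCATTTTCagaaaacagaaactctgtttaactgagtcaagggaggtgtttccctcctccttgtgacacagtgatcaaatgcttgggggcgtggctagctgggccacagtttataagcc
Gbp3, chr3:142559894-142560043, plus strand: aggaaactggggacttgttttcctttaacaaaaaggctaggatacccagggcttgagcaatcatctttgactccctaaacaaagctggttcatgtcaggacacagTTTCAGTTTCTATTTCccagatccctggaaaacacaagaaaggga
Irgm1, chr11:48871421-48871570, minus strand: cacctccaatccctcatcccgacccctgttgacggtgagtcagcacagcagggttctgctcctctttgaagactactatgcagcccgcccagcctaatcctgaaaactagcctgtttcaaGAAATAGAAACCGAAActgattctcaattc
Irf1, chr11:53769864-53770013, plus strand: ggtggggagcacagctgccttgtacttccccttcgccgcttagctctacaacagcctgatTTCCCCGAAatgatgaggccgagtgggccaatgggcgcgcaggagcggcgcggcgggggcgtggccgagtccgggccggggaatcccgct
Psmb8, chr17:34198045-34198194, plus strand: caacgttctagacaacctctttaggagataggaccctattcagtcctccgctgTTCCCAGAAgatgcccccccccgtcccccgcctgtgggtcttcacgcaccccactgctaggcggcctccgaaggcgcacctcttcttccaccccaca
The difference between the knockout day 0 arrays (replicate 2 minus replicate 1) had a median of 0.83 in the 12 members with an ISRE-like match (-0.11 to 2.71) and of 0.51 in the 16 without (-3.19 to 1.89). It had a median of 0.54 in the 7 members with a GAS-like match (-0.38 to 1.17) and of 0.82 in the 21 without (-3.19 to 2.71). These ranges overlapped, and the members share arrays, so no test was made.

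Across arrays the members were highest in knockout at day 0. Their mean on the log2 scale was 7.27 and 7.98 in the knockout arrays and 6.59 in the wild-type array at day 0, and 6.08 and 6.86 in knockout and 6.03 and 6.30 in wild type on day 6. The second knockout array of day 0 was the highest of all, and the second knockout array of day 6 lay above the wild-type array of day 0, so the days overlapped for the list mean. Of the 36 members, 35 had their highest value in a day 0 array (44.8% of all genes had theirs there), and 29 had it in knockout day 0 replicate 2, where 11% of all genes have theirs. The 7 exceptions were Irf1, Gbp3, Tap1, Psmb8, Psmb9, Cxcl9 and Isg20, and Isg20 was highest in wild-type day 6 replicate 1.

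**Figure D1:**
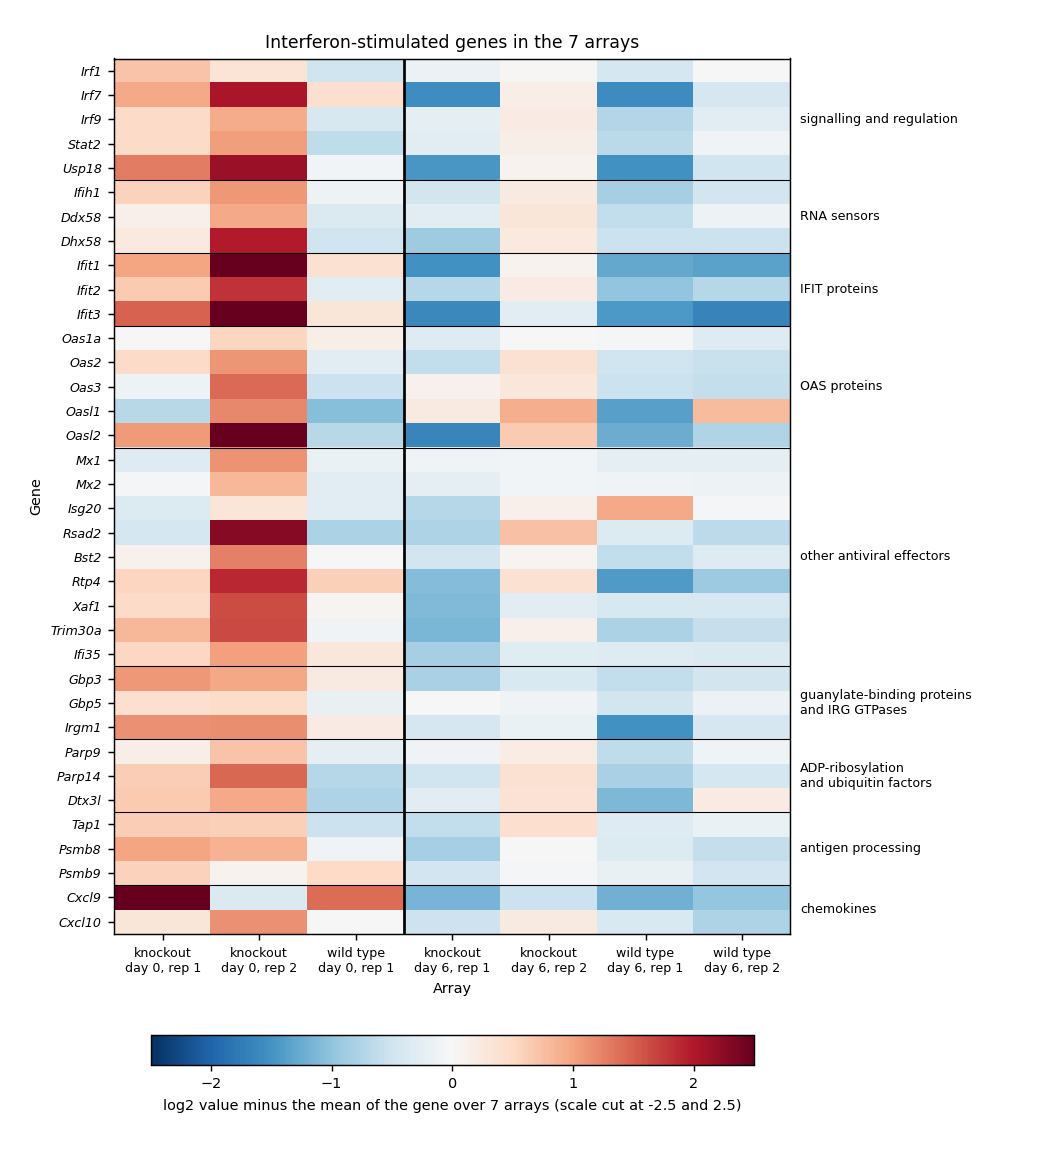
Log2 values of the 36 measured members (rows, by role) in the 7 arrays (columns), each as the difference from the mean of the gene over the 7 arrays, with a vertical line between day 0 and day 6. Knockout day 0 replicate 2 is red for nearly all rows of the IFIT, OAS and other antiviral genes, while Cxcl9 is red in knockout day 0 replicate 1 (9.78) and not in replicate 2 (6.59).

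The 2 knockout arrays of day 0 differed in a large share of the members. In replicate 2, 30 of 36 members were higher than in replicate 1 (54% of all genes were), with a median difference of 0.82 on the log2 scale (1.76-fold), while the median of all genes was 0.02 and their SD 0.31. By 2-fold or more, 13 members were higher in replicate 2 (36.1% of members, against 0.747% of all genes) and 1 was lower (Cxcl9; 0.587% of all genes). Of the 100 genes with the largest difference in this direction, 9 were members. This is a comparison of 2 arrays of 1 group, so it has no test.

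**Figure D2:**
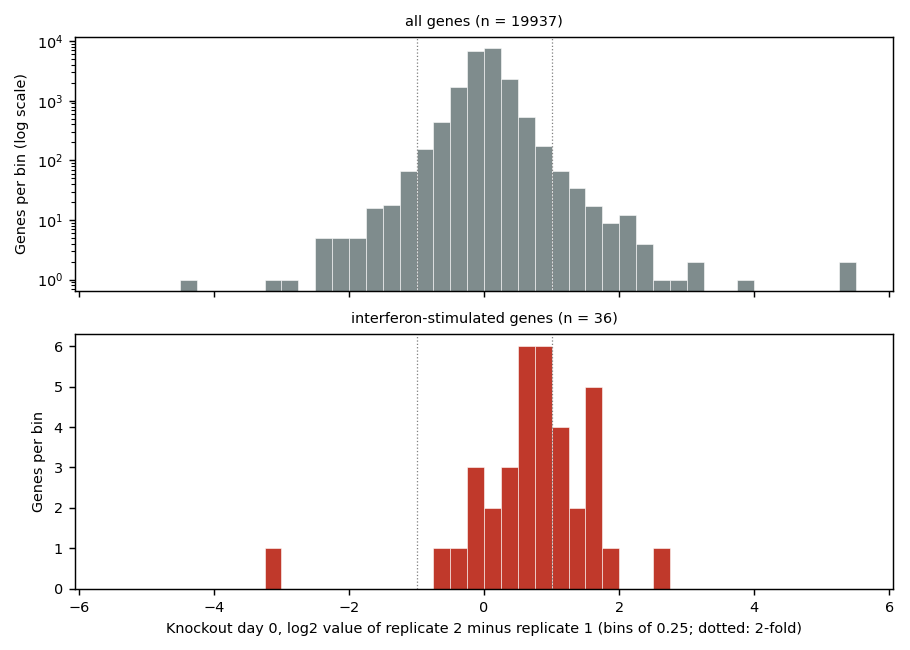
Number of genes by the log2 difference between the knockout day 0 arrays (replicate 2 minus replicate 1), for all 19937 genes on a log axis and for the 36 members on a linear axis, in bins of 0.25 with dotted lines at 2-fold. All genes centre near 0 (median 0.02), whereas the members centre at 0.82 and Cxcl9 stands alone at -3.19.

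IFIT genes encode proteins that bind foreign RNA and block its translation, and all 3 were over 2-fold higher in replicate 2. Ifit3 had log2 values of 8.49 and 10.23 in the knockout arrays and 7.32 in the wild-type array at day 0, and 5.40 and 6.75 in knockout and 5.58 and 5.34 in wild type on day 6. Its day 0 arrays all lay above its day 6 arrays, and replicate 2 was 3.34-fold above replicate 1 in knockout at day 0. Ifit1 had 7.26 and 8.94 in the knockout arrays and 6.65 in the wild-type array at day 0, then 4.75 and 6.36 in knockout and 4.99 and 4.93 in wild type on day 6. Here too the days did not overlap, although knockout day 6 replicate 2 came close to the wild-type array of day 0, and the knockout day 0 arrays differed 3.20-fold. Ifit2 had 6.52 and 7.69, then 5.60, at day 0 and 5.16 and 6.08, then 4.89 and 5.16, at day 6, in the same order of groups. For Ifit2 the days overlapped, because knockout day 6 replicate 2 was above the wild-type array of day 0.

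OAS genes encode oligoadenylate synthetases, which sense viral RNA and switch on RNase L, and their OASL relatives act on RNA sensors and on translation. All 5 were higher in knockout day 0 replicate 2, and 3 of them by over 2-fold. Oasl1, a repressor of Irf7 translation, had log2 values of 6.76 and 8.65 in the knockout arrays and 6.39 in the wild-type array at day 0, and 7.66 and 8.35 in knockout and 6.09 and 8.24 in wild type on day 6. Its days overlapped fully, and it was low in the arrays numbered replicate 1 except knockout day 6. Oas3 had 5.43 and 6.98, then 5.03, at day 0 and 5.66 and 5.84, then 5.01 and 4.96, at day 6, so the value in knockout day 0 replicate 2 stood alone above the rest. Oasl2 had 8.29 and 9.84, then 6.54, at day 0 and 5.59 and 7.89, then 6.00 and 6.48, at day 6. It was higher in replicate 2 of both knockout groups, by 1.55 at day 0 and 2.30 at day 6. Oas1a had the smallest difference of the group, with 5.81 and 6.35, then 5.96, at day 0 and 5.48 and 5.83, then 5.75 and 5.49, at day 6. Oas2 was between these, from 5.44 to 7.15.

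The 9 other antiviral effectors were all higher in knockout day 0 replicate 2, 5 of them by over 2-fold. Rsad2, which encodes viperin, an enzyme that makes a nucleotide that ends viral RNA chains, had log2 values of 6.38 and 9.09 in the knockout arrays and 6.03 in the wild-type array at day 0, and 6.06 and 7.56 in knockout and 6.48 and 6.16 in wild type on day 6. Replicate 2 was 6.53-fold above replicate 1 at day 0, the 7th largest difference of all genes, and the first replicate lay within the range of the wild-type and day 6 arrays. Mx1, an antiviral dynamin-like GTPase, had 3.98 and 5.42, then 4.15, at day 0 and 4.21 and 4.24, then 4.05 and 4.09, at day 6. All but that of knockout day 0 replicate 2 lie within 3.498 to 4.245, the range of Xist and Y-linked genes where these gave no signal, so Mx1 stood above this level in 1 array. Mx2 likewise had 4.59 in that array and 3.50 to 3.71 elsewhere.

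Rtp4, a regulator of the interferon response, had log2 values of 6.76 and 8.11 in the knockout arrays and 6.81 in the wild-type array at day 0, and 5.13 and 6.59 in knockout and 4.81 and 5.31 in wild type on day 6. In Rtp4 knockout day 0 replicate 1 was level with the wild-type array of that day, and all day 6 arrays were lower. Xaf1, which promotes cell death, had 6.28 and 7.43, then 5.88, at day 0 and 4.70 and 5.54, then 5.40 and 5.40, at day 6. Trim30a, a ubiquitin ligase of the TRIM family, had 8.68 and 9.50, then 7.76, at day 0 and 6.70 and 7.97, then 7.05 and 7.28, at day 6. Xaf1 did not overlap between days, whereas for Trim30a knockout day 6 replicate 2 was above wild-type day 0. Ifi35 had the smallest difference between the knockout day 0 arrays in this group, with 8.05 and 8.54 there, 7.80 in wild type at day 0, 6.70 and 7.23 in knockout at day 6 and 7.20 and 7.16 in wild type at day 6. Of the other 2 members, Bst2 (tetherin, which holds budding virus at the cell surface) ranged from 6.47 to 8.35 and Isg20, an RNA exonuclease, from 7.64 to 9.30.

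Among the 5 regulators of signalling, 4 were higher in knockout day 0 replicate 2. Irf7, the transcription factor that amplifies type I interferon, had log2 values of 8.42 and 9.51 in the knockout arrays and 7.89 in the wild-type array at day 0, and 5.92 and 7.65 in knockout and 5.90 and 7.05 in wild type on day 6. The days did not overlap, and replicate 2 was over 2-fold above replicate 1 in each of the 3 groups with 2 arrays. Usp18, a protease that removes ISG15 and dampens type I signalling, had 8.63 and 9.51, then 7.28, at day 0 and 5.89 and 7.44, then 5.83 and 6.85, at day 6. Stat2 had 7.93 and 8.49, then 6.80, at day 0 and 7.18 and 7.59, then 6.77 and 7.37, at day 6, so wild type at day 0 was close to the lowest day 6 array. Irf1, a transcription factor induced by interferon gamma, was the exception: it had 8.53 and 8.15, then 7.31, at day 0 and 7.66 and 7.84, then 7.38 and 7.83, at day 6. In Irf1 replicate 1 was the higher of the knockout day 0 arrays and wild type at day 0 was the lowest of all arrays. Irf9, the DNA-binding partner of the STAT complex, ranged from 6.99 to 8.65.

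The 3 RNA sensors were higher in knockout day 0 replicate 2 by 0.52 to 1.75. Dhx58, which encodes the regulator LGP2, had log2 values of 5.73 and 7.48 in the knockout arrays and 5.002 in the wild-type array at day 0, and 4.61 and 5.73 in knockout and 4.95 and 4.95 in wild type on day 6. Its high value was again that of knockout day 0 replicate 2, and the other arrays overlapped between days. Ddx58, which encodes RIG-I, had 8.03 and 8.85, then 7.54, at day 0 and 7.62 and 8.21, then 7.29 and 7.78, at day 6. Ifih1, which encodes MDA5, had 8.01 and 8.52, then 7.31, at day 0 and 6.98 and 7.65, then 6.61 and 6.97, at day 6. Both overlapped between days, and both were higher in replicate 2 of each group with 2 arrays.

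Guanylate-binding proteins and immunity-related GTPases attack the membranes around microbes inside cells. The 3 measured members, Gbp3, Gbp5 and Irgm1, had nearly equal values in the knockout day 0 arrays, whereas the shared probe set of Gbp2 and Gbp2b was higher in replicate 1. Gbp3 had log2 values of 7.27 and 7.17 in the knockout arrays and 6.42 in the wild-type array at day 0, and 5.39 and 5.81 in knockout and 5.58 and 5.73 in wild type on day 6. Irgm1 had 7.98 and 8.01, then 7.04, at day 0 and 6.43 and 6.68, then 5.32 and 6.43, at day 6. In both genes the knockout day 0 arrays lay within 0.11 of each other, above the wild-type array of that day, which lay above all day 6 arrays. Gbp5 had 4.44 and 4.48, then 3.85, at day 0 and 4.03 and 3.94, then 3.57 and 3.87, at day 6, of which the wild-type and day 6 values lie within the level of absent signal given for Mx1.

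Of the antigen processing genes, Psmb8 and Tap1 were also nearly equal in the knockout day 0 arrays and lower in the wild-type array, and Psmb9 was not. Psmb8, a catalytic subunit of the immunoproteasome, had log2 values of 8.02 and 7.88 in the knockout arrays and 6.94 in the wild-type array at day 0, and 6.20 and 7.01 in knockout and 6.68 and 6.42 in wild type on day 6. Tap1, a subunit of the peptide transporter, had 8.60 and 8.58, then 7.45, at day 0 and 7.36 and 8.41, then 7.67 and 7.83, at day 6. Psmb9, another immunoproteasome subunit, had 8.29 and 7.79, then 8.21, at day 0 and 7.23 and 7.68, then 7.53 and 7.22, at day 6. None of these 3 genes was higher in knockout day 0 replicate 2 than in replicate 1, and only Psmb9 was without overlap between days. In knockout at day 6, by contrast, replicate 2 was above replicate 1 for each of them, by 0.45 to 1.05.

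ADP-ribosylation and ubiquitin factors were higher in replicate 2 by 0.29 to 0.81 at day 0. Parp14, a mono-ADP-ribosyltransferase, had log2 values of 7.73 and 8.54 in the knockout arrays and 6.40 in the wild-type array at day 0, and 6.61 and 7.50 in knockout and 6.30 and 6.67 in wild type on day 6. Dtx3l, a ubiquitin ligase that works with PARP9, had 8.36 and 8.65, then 6.92, at day 0 and 7.41 and 8.05, then 6.57 and 7.90, at day 6. Parp9 had 7.36 and 7.93, then 6.99, at day 0 and 7.13 and 7.40, then 6.58 and 7.11, at day 6. For all 3 genes both knockout arrays of day 0 were above the wild-type array, and day 0 and day 6 overlapped.

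The 2 chemokine genes, whose products attract T cells through CXCR3, went opposite ways in the knockout day 0 arrays. Cxcl9 had log2 values of 9.78 and 6.59 in the knockout arrays and 8.35 in the wild-type array at day 0, and 5.78 and 6.41 in knockout and 5.75 and 5.98 in wild type on day 6. Its difference of -3.19 between the knockout arrays of day 0 was the second lowest of all genes, and replicate 2 was nearer to the day 6 arrays than to the other day 0 arrays. Cxcl10 had 6.21 and 7.04, then 5.91, at day 0 and 5.38 and 6.14, then 5.51 and 5.13, at day 6, and was 1.78-fold higher in replicate 2. By role, the median difference between the knockout day 0 arrays was 1.68 for IFIT, 1.55 for OAS and 1.16 for other antiviral genes, 0.82 for sensors, 0.57 for ADP-ribosylation and ubiquitin factors, 0.56 for signalling genes, 0.04 for GTPases and -0.13 for antigen processing genes.

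**Figure D3:**
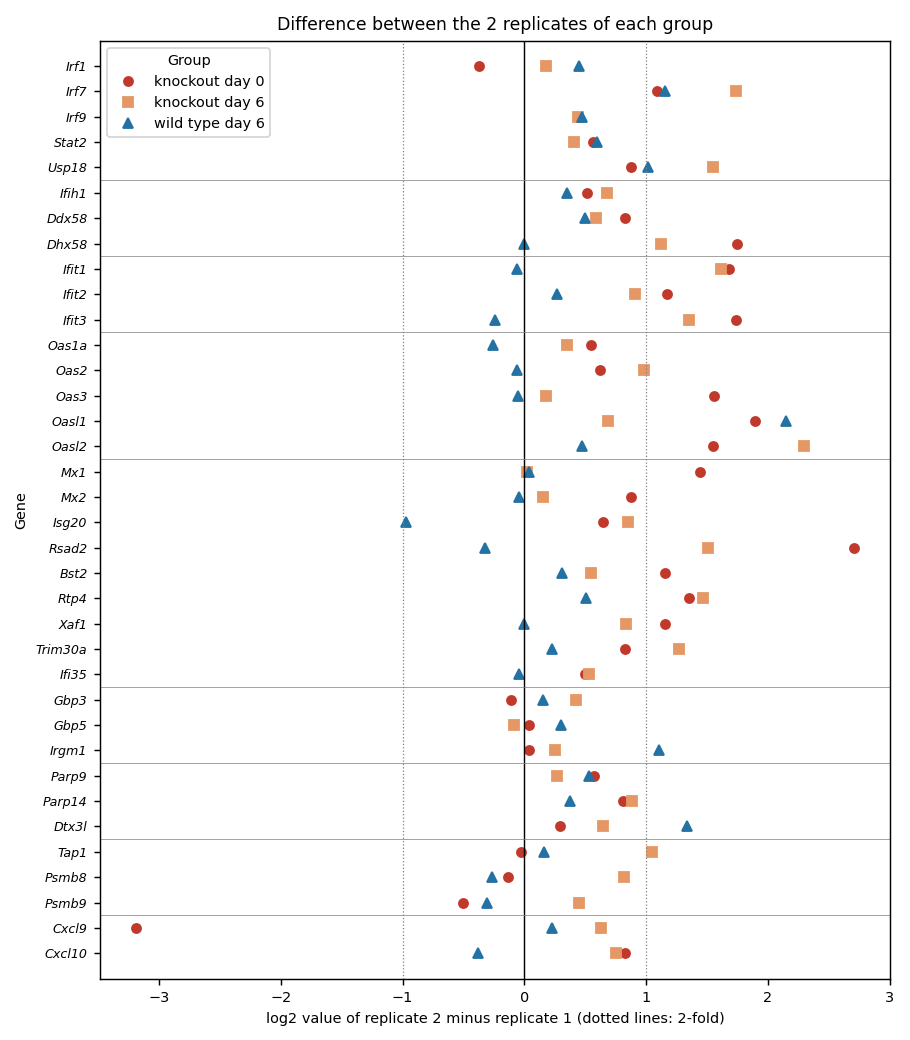
Log2 difference between replicate 2 and replicate 1 for each member (rows) in knockout day 0, knockout day 6 and wild-type day 6, with dotted lines at 2-fold. The red circles of knockout day 0 lie to the right of 0 for 30 members, at 2.71 for Rsad2 and at -3.19 for Cxcl9.

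Other measures also differed between the knockout day 0 arrays. Of the neutrophil markers, 9 of 10 were higher in replicate 2, 4 of them by over 2-fold (S100a8, S100a9, Mmp8 and Cxcr2), and the list mean was 5.69 and 6.50 in those arrays and 5.77 in wild type at day 0. Macrophage and monocyte markers were higher for 9 of 10, 2 of them by over 2-fold (Cd14 and Fcgr1), with list means of 8.91 and 9.44, and 8.48 in wild type. Markers of plasmacytoid dendritic cells, a major source of type I interferon, had list means of 6.73 and 6.82, and 6.72 in wild type, with no marker of 7 differing 2-fold. T cell markers (6.10 and 6.26; 8 of 10 measured), Langerhans and dendritic cell markers (8.16 and 8.12; 11 of 11), B cell markers (4.17 and 4.24; 4 of 5), endothelial markers (8.73 and 8.69; 8 of 8), sebaceous gland markers (10.73 and 10.71; 7 of 7) and natural killer cell markers (4.55 and 4.53; 8 of 8) differed less in their list means, although Gzmb, of the last list, was over 2-fold lower in replicate 2 (5.42 and 4.36). Fat and muscle markers were lower in replicate 2. Fat markers had list means of 10.69 and 10.30 (4 of 6 lower) and muscle markers of 12.38 and 12.09 (7 of 7 lower). The part of these markers in the differences of the interferon-stimulated genes was not tested. The interferon genes themselves had low values: the mean of 9 measured ligands of 14 listed was 4.54 and 4.44 in the knockout arrays and 4.80 in wild type at day 0, and 4.58 to 4.98 at day 6. Ifnb1, the gene of interferon beta, had 3.55 and 3.64 and Ifng, that of interferon gamma, 4.64 and 4.52 in the knockout arrays of day 0.

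At day 6 the knockout replicates differed in the same direction by number, though replicate numbers are not known to pair arrays. In knockout, 35 of 36 members were higher in replicate 2 (all but Gbp5; 43.8% of all genes were higher), with a median difference of 0.68 (1.60-fold) against -0.04 for all genes. By 2-fold or more, 10 were higher, against 1.45% of all genes: Irf7, Usp18, Dhx58, Ifit1, Ifit3, Oasl2, Rsad2, Rtp4, Trim30a and Tap1. In wild type at day 6, 22 of 36 were higher in replicate 2 (41.8% of all genes were) and the median difference was 0.23, against -0.09 for all genes. The 5 members over 2-fold higher there, against 2.13% of all genes, were Irf7, Usp18, Oasl1, Irgm1 and Dtx3l. Sebaceous gland markers differed between the same arrays, with list means of 6.58 and 9.24 in knockout and 6.52 and 9.17 in wild type. Fibroblast markers had 9.88 and 10.77 in knockout and 9.37 and 10.24 in wild type, and the macrophage markers were higher in replicate 2 for 10 of 10 in knockout (median difference 0.87) and 6 of 10 in wild type (0.26). In knockout, Langerhans and dendritic cell markers were higher in replicate 2 for 10 of 11 (H2-Ab1, H2-Aa, H2-Eb1 and Cd74 by over 2-fold), endothelial markers for 8 of 8 (median difference 0.65), fat markers for 6 of 6 (0.50), muscle markers for 6 of 7 (0.32) and neutrophil markers for 7 of 10 (0.66). In wild type, muscle markers were higher for 7 of 7 (0.80) and endothelial markers for 7 of 8 (0.42), whereas neutrophil markers were lower for 8 of 10, 4 of them by over 2-fold, and fat markers for 5 of 6 (-0.42). The part of these markers in the differences of the members was not tested.

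From day 0 to day 6, over both genotypes, 34 of 36 members had a difference below 0, and 5 of 36 fell at a limma adjusted p under 0.05. These were Gbp3, Irgm1, Ifit3, Ifi35 and Ifit1, a mix of GTPase and antiviral genes. The 5 make up 13.9% of the members, where 5.62% of all genes fell. Ifit3 was 6.57-fold lower at day 6, a log2 difference of -2.72 ± 0.55 (SE; limma adjusted p = 0.0260), and Ifit1 was 4.60-fold lower (-2.20 ± 0.52, adjusted p = 0.0423). Gbp3 had the smallest p of the members (-1.28 ± 0.21, adjusted p = 0.0147). Irgm1 fell by 1.33 ± 0.27 on the log2 scale (adjusted p = 0.0252) and Ifi35 by 1.05 ± 0.23 (adjusted p = 0.0320). The median of the members was -0.70, and that of all genes 0.06. Of the 31 members that did not pass, Rtp4 (-1.65 ± 0.44, adjusted p = 0.0599), Irf7 (-1.88 ± 0.52, adjusted p = 0.0660), Psmb9 (-0.68 ± 0.19, adjusted p = 0.0693) and Usp18 (-1.82 ± 0.52, adjusted p = 0.0711) were nearest. In 10 members all 4 day 6 arrays lay below all 3 day 0 arrays (27.8%, against 9.66% of all genes): Irf7, Ifit1, Ifit3, Rtp4, Xaf1, Ifi35, Gbp3, Irgm1, Psmb9 and Cxcl9. The count of 5 was 0 without knockout day 0 replicate 1 or without knockout day 6 replicate 2, 1 without knockout day 6 replicate 1, 2 without knockout day 0 replicate 2 or wild-type day 6 replicate 2, 3 without wild-type day 6 replicate 1, and 9 without the wild-type day 0 array. Without knockout day 0 replicate 2 the 2 were Ifit3 and Cxcl9, and with a term for the arrays with Xist signal they were Gbp3 and Irgm1.

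In knockout alone 9 of 36 members fell (25%, where 9.07% of all genes fell), from every role group except the sensors, OAS genes, ADP-ribosylation and ubiquitin factors and chemokines. Ifit3 was 9.76-fold lower at day 6 (-3.29 ± 0.62, SE; limma adjusted p = 0.0140), Ifit1 5.82-fold (-2.54 ± 0.65, adjusted p = 0.0413) and Usp18 5.29-fold (-2.40 ± 0.57, adjusted p = 0.0329). Gbp3 was 3.08-fold lower and had the smallest adjusted p (-1.62 ± 0.19, adjusted p = 0.00255). The other 5 were Ifi35 (-1.33 ± 0.24, adjusted p = 0.0128), Psmb8 (-1.34 ± 0.28, adjusted p = 0.0197), Irgm1 (-1.44 ± 0.34, adjusted p = 0.0316), Xaf1 (-1.73 ± 0.41, adjusted p = 0.0326) and Trim30a (-1.75 ± 0.44, adjusted p = 0.0387). The median of the members was -0.91, and that of all genes 0.10, and 35 of 36 members had a difference below 0, the exception being Oasl1 (0.30 ± 0.81, adjusted p = 0.847). Both day 6 arrays lay below both day 0 arrays in 27 of 36 members (75%), against 25.2% of all genes. Leaving out 1 knockout array, which leaves 1 array in its group, changed the calls both ways. More members fell without knockout day 0 replicate 1 or without knockout day 6 replicate 2, and fewer without either of the other knockout arrays. Knockout day 0 replicate 2, the array with the high antiviral genes, enters this comparison: without it 3 members fell, Gbp3, Ifit3 and Cxcl9, and Xaf1 was at -1.15 (adjusted p = 0.110). Without knockout day 6 replicate 1, Gbp3 alone fell, and Trim30a was at -1.12 (adjusted p = 0.155).

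In wild type the 2 day 6 arrays were compared with 1 day 0 array, which borrows its error from the other groups. No member passed by limma (0 of 36, against 3.61% of all genes that fell), and 5 were lower at an unadjusted p under 0.05, where 10% of all genes were lower: Ifit3 (-1.86 ± 0.76, SE), Rtp4 (-1.75 ± 0.70), Irgm1 (-1.17 ± 0.42), Psmb9 (-0.84 ± 0.30) and Gbp3 (-0.77 ± 0.24). Their adjusted p ran from 0.116 (Gbp3) to 0.232 (Ifit3). The median of the members was -0.32 and that of all genes 0.00. Both day 6 arrays lay below the day 0 array in 23 of 36 members (63.9%), where 34.8% of all genes did. Stat2 (0.27 ± 0.35), Irf1 (0.30 ± 0.27), Tap1 (0.30 ± 0.39) and Isg20 (0.73 ± 0.51) were among those with a value above 0. Leaving out either knockout array of day 0, which changes the shared error, 1 member passed (Cxcl9), and without wild-type day 6 replicate 2, 1 passed (Irgm1).

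**Figure D4:**
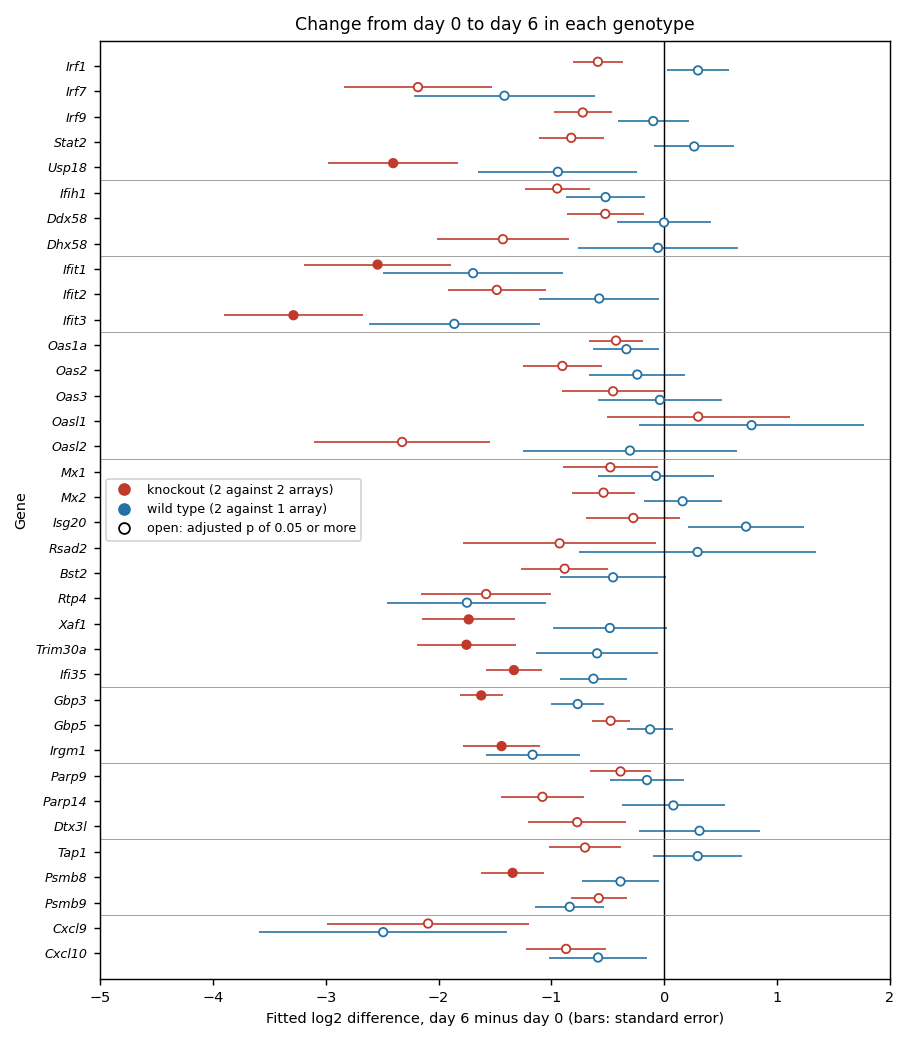
Fitted log2 difference between day 6 and day 0 for each member in knockout (red, 2 against 2 arrays) and wild type (blue, 2 against 1 array), with bars of 1 standard error. Filled points passed at an adjusted p under 0.05: 9 in knockout, led by Ifit3 at -3.29, and 0 in wild type.

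Markers of several cell types moved between days too. The counts below are for day over both genotypes, where 5.62% of all genes fell and 5.85% rose. Keratinocyte, endothelial, plasmacytoid dendritic, natural killer and B cell markers had list means that overlapped between days. Langerhans and dendritic cell markers had list means of 7.45 to 8.16 at day 0 and 6.73 to 7.29 at day 6, and 4 of 11 fell over both genotypes. Adipocyte markers had 9.97 to 10.69 at day 0 and 6.61 to 7.38 at day 6 (5 of 6 fell), muscle markers 11.35 to 12.38 and 8.57 to 9.57 (6 of 7 fell), sebaceous gland markers 9.71 to 10.73 and 6.52 to 9.24 (2 of 7 fell) and fibroblast markers 10.63 to 12.02 and 9.37 to 10.77 (3 of 7 fell). Neutrophil markers had 5.69 to 6.50 at day 0 and 6.96 to 8.47 at day 6 (2 of 10 rose), and macrophage markers had a median difference of -0.28 (0 of 10 passed). T cell markers had 5.74 to 6.26 and 5.45 to 5.70 (3 of 8 fell and 1 rose). The part of these markers in the day differences of the members was not tested.

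**Figure D5:**
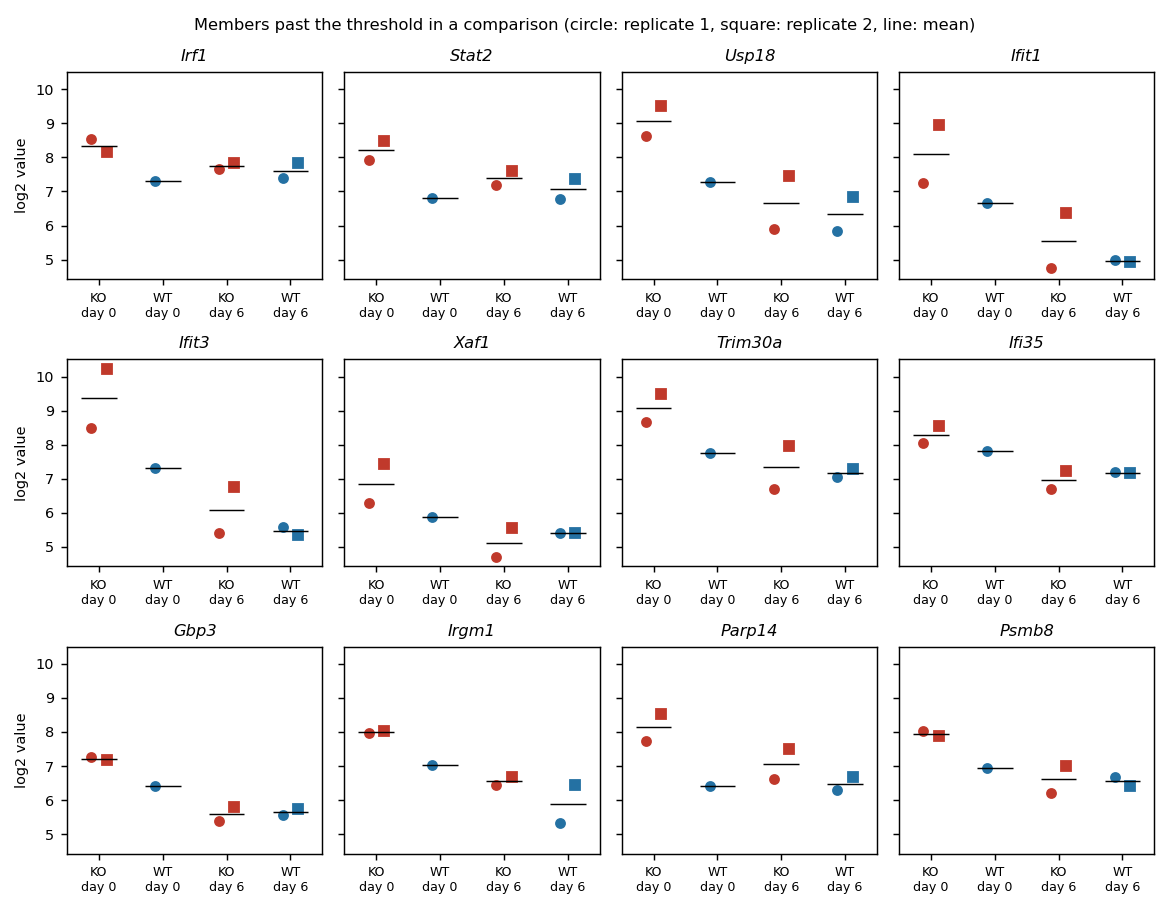
Log2 values by group for the 12 members that passed in at least 1 comparison, with circles for replicate 1, squares for replicate 2, lines for group means, red for knockout (KO) and blue for wild type (WT). In Gbp3 and Irgm1 the knockout day 0 arrays nearly coincide, while in Ifit1 and Ifit3 replicate 2 lies 1.68 and 1.74 above replicate 1.

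At day 6, knockout and wild type were compared with 2 arrays each, and no member passed (0 of 36 by limma). Of all genes 0% passed, not even Iqgap1, so this comparison cannot show that the members did not differ. No member had an unadjusted p under 0.05, where 5.93% of all genes had. The median difference, knockout minus wild type, was 0.32, against 0.00 for all genes, and 31 of 36 members were above 0. Irgm1 had the smallest adjusted p (0.68 ± 0.34, SE; limma adjusted p = 0.812), and the highest difference was that of Oasl1 (0.84 ± 0.81, adjusted p = 0.891). Both knockout arrays lay above both wild-type arrays in 6 members (16.7%, near the 15.9% of all genes), namely Irf9, Ifih1, Oas3, Mx1, Gbp5 and Parp9, and below them in 0 members (15.7% of all genes). The median was 0.74 without knockout day 6 replicate 1 and -0.07 without knockout day 6 replicate 2, so 1 array decided its sign.

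At day 0, the 2 knockout arrays were compared with the 1 wild-type array. Stat2 (1.41 ± 0.35, SE; limma adjusted p = 0.0434), Parp14 (1.73 ± 0.45, adjusted p = 0.0488) and Irf1 (1.03 ± 0.27, adjusted p = 0.0492) were higher in knockout. These 3 make up 8.33% of the members, which is near the 8.53% of all genes that were higher. The call of Irf1, the only member with 2 probe sets of its own, was lost when these were averaged. It was also lost with the trend and robust options of eBayes and with a term for replicate number, among other settings. Of 14 alternative settings, Irf1 was called in 3, and Stat2 and Parp14 in 7 each. The median difference of the members was 1.02, against -0.09 for all genes, and the latter was 0.05 after each array was centred on its median. Cell type markers were higher in the knockout arrays too. Fibroblast markers had a median difference of 1.55 (7 of 7 above 0, 3 called), endothelial markers 1.26 (8 of 8, 3 called), sebaceous gland markers 1.26 (6 of 7, 0 called), macrophage markers 0.92 (7 of 10, 0 called), muscle markers 0.84 (7 of 7, 1 called), Langerhans and dendritic cell markers 0.81 (9 of 11, 2 called), keratinocyte markers 0.55 (9 of 10, 2 called), fat markers 0.43 (5 of 6, 1 called) and T cell markers 0.36 (5 of 8, 0 called). Neutrophil, natural killer, plasmacytoid dendritic and B cell markers had medians from -0.23 to -0.06. The part of these markers in the genotype difference of the members was not tested. Both knockout arrays lay above the wild-type array in 30 of 36 members (83.3%), against 36% of all genes, and the 6 others were Oas1a, Mx1, Isg20, Rtp4, Psmb9 and Cxcl9. The largest differences were those of genes that also differed between the knockout arrays, such as Oasl2 (2.52 ± 0.95, adjusted p = 0.127) and Ifit3 (2.04 ± 0.76, adjusted p = 0.123), and they did not pass. Without knockout day 0 replicate 2 no member passed, without replicate 1 there were 8 (among them Cxcl9, which was lower), and without either wild-type array of day 6 there were 6. After centring of the arrays 0 passed. With a term for Xist signal 0 passed too, but that term rests only on the 2 wild-type arrays of day 6. It is carried from there to the wild-type array of day 0, so this fit cannot separate genotype from Xist signal.

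Whether the day change differed by genotype was tested as an interaction. No member passed (0 of 36, against 3.1% of all genes), and 3 had an unadjusted p under 0.05 towards a lower day change in knockout, Gbp3 (-0.86 ± 0.30, SE; limma adjusted p = 0.213), Irf1 (-0.89 ± 0.35, adjusted p = 0.257) and Stat2 (-1.09 ± 0.46, adjusted p = 0.285). That is 8.33% of the members, near the 9.36% of all genes. The median of the members was -0.74, against 0.06 for all genes. The day changes of knockout and wild type were therefore not shown to differ for any member.

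The rest of the interferon pathway was followed through lists of 57 genes, of which 47 were measured. Few of them passed in the day comparisons, and the share of all genes is given with each count. Over both genotypes 1 of these rose by day 6 (5.85% of all genes rose), Ikbke (1.20 ± 0.18, SE), a kinase that activates IRF3 and IRF7, and 1 fell (5.62% of all genes), Irf4 (-1.80 ± 0.40), a transcription factor of lymphoid and dendritic cells. In knockout, Irf4 (-2.52 ± 0.28), Zbp1 (-1.58 ± 0.38), a nucleic acid sensor, and Socs3 (-1.33 ± 0.25), an inhibitor of JAK signalling, fell (3 of 47, against 9.07% of all genes) and Ikbke (1.04 ± 0.22) rose (1 of 47, against 7.24%). In wild type Ikbke (1.44 ± 0.27) and Trim25 (1.61 ± 0.23), a ubiquitin ligase that activates RIG-I, rose (2 of 47, against 3.51% of all genes). None of 9 ligands or 6 receptors passed in any of the 6 comparisons. The receptor list means were 9.17 to 9.52 over the 7 arrays, and those of the 4 measured kinases and transducers 8.88 to 9.87.

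Between the knockout day 0 arrays 1 of the 47 differed by 2-fold or more. Zbp1 had log2 values of 7.24 and 8.51 in the knockout arrays and 6.66 in the wild-type array at day 0, and 6.25 and 6.35 in knockout and 5.98 and 5.66 in wild type on day 6, so its high value was that of knockout day 0 replicate 2. Eif2ak2, the gene of the RNA-activated kinase PKR, had 7.02 and 7.79 and Adar, an RNA-editing enzyme, 7.47 and 8.16 in those arrays. The median difference of the 47 was 0.09, against 0.82 for the 36 members. At day 0, 9 of the 47 were higher in knockout than in the wild-type array (Irf2, Irf4, Jak1, Mavs, Samhd1, Socs3, Stat3, Tlr9 and Trim25), which is 19.1% against 8.53% of all genes. None (0 of 47) passed at day 6, and in the interaction Trim25 alone passed, with a lower day change in knockout (-1.94 ± 0.29; 1.35% of all genes passed in this direction).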

How the data were processed

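RNA levels came from 7 Affymetrix Mouse Gene 1.0 ST arrays. The authors deposited RMA values on the log2 scale, with R 2.11.1 named in the submitters' processing notes. RMA corrects background, normalizes arrays by quantiles and summarizes probes, so it compresses differences of dim probe sets. The scale was read from the range of the values (2.37 to 13.38). The genome build, other settings and any batches are not given in the sources used here. The number of arrays limits the precision.

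Of 34760 probe sets, 21640 name 1 gene, 1321 several and 11799 none in the platform's gene table. Of the members only Irf1 has 2 probe sets of its own. All 36 measured members matched RefSeq symbols, and promoter sequences are RefSeq's (GRCm38.p6).

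Groups came from the sample titles. Differences were tested two-sided with limma 3.58.1 in R 4.3.3 (lmFit, eBayes) over all 19937 genes, with Benjamini-Hochberg adjustment and calls below 0.05. Day over both genotypes was estimated with genotype and day as additive terms, leaving 4 residual degrees of freedom. All 5 remaining comparisons were contrasts of the 4 group means, with 3 residual degrees of freedom, so the error of the single wild-type array of day 0 is taken from the other groups' spread. The procedure was also run on simulated data. The noise there was drawn independently for each gene, so that run cannot speak to shifts that members share between replicates. Deviations of same-numbered replicates correlated at 0.0862 (knockout day 0 with knockout day 6), 0.0365 (knockout day 0 with wild-type day 6) and 0.227 (knockout day 6 with wild-type day 6). Such values cannot show whether the arrays were paired. The labels do not say what a replicate number marks, so the numbers were not treated as pairs.

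The members, roles, pathway lists and marker lists were chosen with earlier results of these data known. Values in every array are given for members past the threshold in any comparison and, in each role group of 3 or more, for the 2 with the highest and the 1 with the lowest difference between the knockout day 0 arrays. Others named were chosen after their values were seen. Alternatives covered probe set choice, filtering, scaling, eBayes options, a replicate term, and leaving out arrays.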

Additional observations from a re-analysis of the deposited data

How the results depend on the processing

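Counts of members past the threshold depended on the setting. Medians moved by less than 0.56 (the SD of member medians within groups). That SD is larger than the size of the medians for day in wild type (-0.32) and genotype at day 6 (0.32). The median for genotype at day 6 changed sign when 1 array was left out. Over both genotypes the count of 5 for day became 3 with arrays centred on their medians, 13 with the replicate block and 2 with a term for Xist signal, a setting chosen after seeing the data. In knockout the count of 9 became 4 with all probe sets tested, 5 with centred arrays and 18 with the block. In wild type the count of 0 became 3 with the block (Irf7, Rtp4 and Usp18) and 1 with the Xist term. For genotype at day 0 the count of 3 became 0 with all probe sets, with centred arrays and with the Xist term, and 1 with the gene table quantile normalized again; with the block it was 4. The numbers are not known to pair samples, so the block is given as a setting only. In the contrasts of group means the Xist term rests on the difference between the wild-type arrays of day 6. It cannot separate genotype from Xist signal at day 0 and is likewise given as a setting only.

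Leaving out each array in turn gave 0 to 9 members over both genotypes, 1 to 12 in knockout, 0 to 1 in wild type, 0 to 8 for genotype at day 0, and 0 for genotype at day 6 and for the interaction. The medians then ranged from -0.91 to -0.40, -1.34 to -0.61, -0.38 to -0.28, 0.65 to 1.31, -0.07 to 0.74 and -1.07 to -0.34 in the same order. Of the 216 pairs of a member and a comparison, 61 were called in at least 1 setting. For these, 738 alternative values kept their direction and their side of the threshold, 100 lost a call, 68 gained one and 6 changed sign. Over all 216 pairs 115 of 3162 alternative values changed sign, in 67 pairs, 41 of the values for genotype at day 6, 24 for the interaction, 23 for day in wild type, 11 for genotype at day 0, 9 for day over both genotypes and 7 for day in knockout. No pair called in the 6 comparisons as first fitted was among these 67. Some pairs that were called only in an alternative setting were. Without knockout day 0 replicate 1 or 2, the knockout day change was -1.23 or 0.32 for Oas3 and -1.20 or 0.25 for Mx1, and the day 0 difference was 1.28 or -0.17 for Mx1 and -1.76 or 1.43 for Cxcl9. That of Cxcl9 was 0.22 with the replicate block, and that of Irgm1 -0.15 with the Xist term. The cause was not tested. Without both wild-type replicate 1 arrays, wild type at day 0, genotype at day 0 and the interaction could not be fitted.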

Other observations

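Among genes outside the list, 6 were higher than Rsad2 in their difference between the knockout day 0 arrays (replicate 2 minus replicate 1, log2): Skint3 (5.32) and Skint9 (5.27), of a family expressed in epidermis and thymus, the stress keratin gene Krt6b (3.86), Ankrd1 (3.20), Skint4 (3.02) and Gsdmc (2.95). Ifi213, an interferon-inducible gene of the p200 family that was not listed, followed Rsad2 at rank 8 with 2.46, and had log2 values of 4.07 and 6.54 in the knockout arrays and 4.41 in the wild-type array at day 0 and 3.89 to 4.30 at day 6. Krt6b had 7.54 and 11.40 in the knockout arrays and 6.47 in the wild-type array at day 0, and 12.64 to 12.70 at day 6. At the other end, Il6, an inflammatory cytokine gene, was lower in replicate 2 together with Cxcl9, with 7.52 and 5.17 in the knockout arrays and 7.19 in the wild-type array at day 0. These are values of 2 arrays of 1 group and have no test.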
